A study of Homo sapiens with 3 samples.

Results

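The miR-221/222 cluster gives 4 mature microRNAs, hsa-miR-221-3p, hsa-miR-222-3p, hsa-miR-221-5p and hsa-miR-222-5p (written without the species prefix from here on), which were taken by name from a deposited table of 1149 human mature miRNAs. All 4 members were listed. A mean level of 10 rpm (reads per 1000000 reads of a library) or more over the libraries was required of a miRNA to be counted, and 3 of the 4 members and 208 of the 1149 miRNAs had it. miR-222-5p did not have it, with under 10 rpm in every library, and the other members were above 10 rpm in each.

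A microRNA hairpin is cut into a duplex of 2 arms, of which one is usually kept as the guide that leads Argonaute to messenger RNAs, while the other is mostly lost. The guide finds its targets through the seed, bases 2 to 8 from its 5′ end. miR-221-3p and miR-222-3p, the guides of this cluster, share their seed and are known to repress CDKN1B (p27) and CDKN1C (p57), inhibitors of the cell cycle, the receptor KIT, the proapoptotic gene BBC3 (PUMA) and the protease inhibitor TIMP3. They are often abundant in carcinoma cells, and NF-kB and the AP-1 factor c-Jun are known to drive the cluster in human tumour lines.

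The libraries were small RNA libraries of CAL-27, an established human squamous carcinoma line of the tongue. RR, the radioresistant group, received 2 Gy of X-rays a day in 2 cycles of 5 days, with 2 weeks of recovery after each cycle, before single-cell clones were isolated. Mock received 2 Gy once, by the design text, and CC was untreated. No other allele, agent or transgene is named in the labels, which leave unsaid whether a library held RNA of 1 clone or more. The treatment tag of the Mock library names irradiation and that of the RR library names 2 Gy, so these tags do not by themselves settle which library had the single dose, and RR and Mock below stand for the libraries with those titles. There was 1 library in each group, so no difference has a replicate check, no p-value is given, and each interval covers counting error in the reads only. In bulk RNA a level averages over the cells, so fewer cells with a miRNA and less of it per cell cannot be told apart.

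Total depth, inferred from the step of 1 read in the deposited values, was 10473400 reads for RR, 10632785 reads for Mock and 10769990 reads for CC. The listed miRNAs took 20.5% of them for RR (95% Wilson interval 20.48 to 20.53), 23.2% for Mock (23.14 to 23.19) and 16.3% for CC (16.23 to 16.28). Which reads that total holds, all or those left after a filter, was not known. A level in rpm is thus a share of this total, and a shift in its other reads moves it. The median log2 ratio of the 208 miRNAs was 0.36 for RR over CC, 0.28 for Mock over CC, with 0.065 in the RR over Mock pair. The Mock library stood apart from both others. Its log2 ratio to CC followed the GC content of the miRNA, with a Spearman correlation of -0.55 across the 208 miRNAs, against 0.048 for RR over CC (miRNAs share the library and are not replicates). All 8 squamous epithelial markers had a mean above 10 rpm and summed to 45502 rpm in RR, 30009 rpm in Mock and 39032 rpm in CC. The lower sum of Mock came from miR-205-5p, at 29651 rpm for RR, 14174 rpm for Mock and 25945 rpm for CC, and each of the other 7 was higher in Mock than in CC. Of 7 blood markers 6 were listed, and they summed to 12.3 rpm in RR, 409.9 rpm in Mock and 9.56 rpm in CC. Most of this was miR-486-5p, with 11.5 rpm for RR, 398 rpm for Mock and 8.73 rpm for CC. Of the listed blood markers 3 were at 0 reads in RR, 0 in Mock and 3 in CC. Of 5 mesenchymal markers 4 were listed, 1 of them as a row shared by miR-199a-3p and miR-199b-3p, and none averaged 10 rpm. They summed to 9.07 rpm in RR, 8.84 rpm in Mock and 8.26 rpm in CC. Among them miR-199a-5p had 0 reads in RR, 12 in Mock and 2 in CC. The shared row was also highest in Mock, at 2.58 rpm for RR, 3.20 rpm for Mock and 1.86 rpm for CC. The other listed markers were lowest in Mock: miR-143-3p had 6.30 rpm for RR, 4.42 rpm for Mock and 5.76 rpm for CC. miR-145-5p had 2 reads in RR, 1 in Mock and 5 in CC. The 2 endothelial markers, of a cell type that also expresses this cluster, summed to 81.9 rpm for RR, 66.9 rpm for Mock and 55.2 rpm for CC. The 3 muscle markers, most of it miR-1-3p, summed to 408 rpm for RR, 345 rpm for Mock and 341 rpm for CC. Among them miR-206 had 3.63 rpm for RR, 25.5 rpm for Mock and 1.76 rpm for CC, 14.4-fold higher in Mock than in CC (9.07 to 24.4). The rest of the list went the other way. miR-1-3p had 319 rpm in Mock against 338 rpm in CC, and miR-133a-3p had 0.658 rpm (7 reads) against 1.02 rpm (11 reads). The liver marker miR-122-5p had 2.96 rpm for RR, 5.45 rpm for Mock and 4.46 rpm for CC. The part of other cells in the results was not tested.

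The mature sequences, as listed in the deposited table with T for U, are shown to make plain which bases the members share; the seed is in capitals.
miR-221-3p: aGCTACATtgtctgctgggtttc
miR-222-3p: aGCTACATctggctactgggt
miR-221-5p: aCCTGGCAtacaatgtagattt
miR-222-5p: cTCAGTAGccagtgtagatcct
The 3p arms were identical over their first 8 bases and differed by 6 edits (substitutions, insertions or deletions) over their whole length. No other listed miRNA had their seed, and the 5p arms shared theirs with no listed miRNA. For either 3p arm the other was the closest of the 1149 listed sequences, and the nearest sequence to either 5p arm was 8 edits away.

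The hairpins are shown with both arms in capitals, to show where each mature miRNA is cut out (RefSeq, GRCh38.p14, minus strand of chromosome X).
MIR221: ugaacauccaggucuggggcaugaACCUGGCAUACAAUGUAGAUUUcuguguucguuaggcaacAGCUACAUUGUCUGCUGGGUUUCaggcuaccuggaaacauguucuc
MIR222: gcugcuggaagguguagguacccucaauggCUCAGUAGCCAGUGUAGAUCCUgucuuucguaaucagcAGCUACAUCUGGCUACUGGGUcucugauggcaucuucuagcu
MIR221 lies at chrX:45746157-45746266 and MIR222 at chrX:45747015-45747124, with 748 bases between them. The 3p arms lie at chrX:45746180-45746202 for miR-221-3p and chrX:45747036-45747056 for miR-222-3p, and the 5p arms at chrX:45746221-45746242 for miR-221-5p and chrX:45747073-45747094 for miR-222-5p. Each mature sequence was found in 1 RefSeq hairpin and no other. In the RefSeq table used here 3 of the 4 members were matched by name, with the same sequence, and miR-221-5p was placed by its deposited sequence. Both hairpins lie in the only intron of a 2-exon transcript of MIR222HG, their long noncoding host gene (GENCODE 29, GRCh38, chrX:45745211-45770274), with MIR221 56 bases from the second exon.

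Because both hairpins lie within 1 host transcript, the host's promoter is shown, with 250 bases before and 50 after its RefSeq start (chrX:45770218-45770517, minus strand). The capitals mark a match to the NF-kB consensus and a TATAA, both on the gene's strand.
MIR222HG promoter: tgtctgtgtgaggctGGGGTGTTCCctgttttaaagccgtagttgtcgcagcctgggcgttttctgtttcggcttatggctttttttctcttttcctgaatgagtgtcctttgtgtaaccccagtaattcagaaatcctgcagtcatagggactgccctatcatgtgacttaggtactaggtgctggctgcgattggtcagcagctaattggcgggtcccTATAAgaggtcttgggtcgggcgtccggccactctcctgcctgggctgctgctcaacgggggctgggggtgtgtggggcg
TATAA began at position -30 from the start, and it was found on either strand in 20.4% of the 35116 promoters of this length. The NF-kB consensus, found in 11.3% of them, began at position -235. The AP-1 motif TGANTCA, which reads the same on both strands and is found in 7.71%, had no match in this window. The motifs did not overlap, and these are matches of letters, not sites of binding.

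Messenger RNAs were not measured here, but the reach of the shared seed can be read from the reference. The match to the seed, ATGTAGC on the mRNA strand, was searched in the 3′ UTR of 1 transcript per gene (GENCODE 29) for 10 genes known or reported as targets of the cluster. Of these, 7 held at least 1 match, 9 matches in all, and 8 of the 9 were followed by an A (ATGTAGCA, an 8-base match). Over 18828 protein-coding genes, 7.40% held ATGTAGC and 3.08% the 8-base match. The 10 genes were picked as known or reported targets, and such reports may themselves rest on the seed match. Their share with a match is therefore a description and no test. The sites in the cell cycle inhibitors, KIT and BBC3 are shown, with the seed match in capitals.
CDKN1B site 1: ctctaaaagcgttggATGTAGCa
CDKN1B site 2: tagtttttaccttttATGTAGCa
CDKN1C: cggctgggaccgttcATGTAGCa
KIT site 1: ttagtttggattcttATGTAGCa
KIT site 2: tttgtaaatattgaaATGTAGCa
BBC3: gactttctctgcaccATGTAGCa
In CDKN1B the sites lie at chr12:12721213-12721235 and chr12:12721286-12721308 (GRCh38, plus strand), in a 3′ UTR of 1344 bases. Of 2309 genes with a 3′ UTR within 20% of that length, 6.32% had 1 match or more and 0.260% had 2 or more. KIT, the receptor of stem cell factor, had its 2 sites at chr4:54739572-54739594 and chr4:54740501-54740523, and 0.868% of genes with a 3′ UTR of like length had as many. CDKN1C had its site at chr11:2883828-2883850 on the minus strand and BBC3 at chr19:47221699-47221721 on the minus strand. TIMP3, BMF and ESR1 had 1 match each, in 3′ UTRs of 3666 bases or more, a length at which 18.9% to 21.8% of genes hold one. FOXO3, MGMT and DDIT4 had no match in the 3′ UTR searched. Both 3p arms carry the same seed, so these letters do not tell miR-221-3p and miR-222-3p apart.

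The guides made up nearly all reads of the cluster. miR-221-3p stood at 5787 rpm in RR (95% Poisson interval 5741 to 5833), 8381 rpm in Mock (8326 to 8436) and 4818 rpm in CC (4777 to 4860), from 60605 reads (RR), 89114 (Mock) and 51892 (CC). It was the miRNA with the 10th highest level in RR, the 9th in Mock and the 10th in CC. By mean level it stood between let-7b-5p, with 8194 rpm for RR, 5188 rpm for Mock and 5670 rpm for CC, and miR-7-5p, with 4243 rpm for RR, 7892 rpm for Mock and 4300 rpm for CC, and in Mock the order of these 3 miRNAs was not that of RR and CC. In rpm the Mock library had the highest level and CC the lowest, with intervals that did not overlap. Those intervals do not cover the choice of scale. In shares of the reads of all listed miRNAs, RR lay below CC, at 2.82% against 2.96%.

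miR-222-3p, its seed partner, had far fewer reads, at 343 rpm in RR (332 to 355), 577 rpm in Mock (563 to 592) and 299.5 rpm in CC (289 to 310), from 3597 reads (RR), 6137 (Mock) and 3226 (CC). It ranked 60th for RR, 44th for Mock and 56th for CC. By mean level it stood between miR-17-5p and miR-181a-5p, and it was above both in Mock and below both in RR and CC (their values are given with the target lists). The order of the libraries in rpm was that of miR-221-3p, again without overlap of the intervals. In shares of the reads of all listed miRNAs, RR again lay below CC, at 0.167% against 0.184%.

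The passenger arms were scarce. miR-221-5p stood at 14.0 rpm in RR (11.9 to 16.5), 25.2 in Mock (22.3 to 28.4) and 12.3 in CC (10.3 to 14.5), from 147 reads (RR), 268 (Mock) and 132 (CC). miR-222-5p stood at 2.48 rpm in RR (1.62 to 3.64), 5.08 in Mock (3.82 to 6.63) and 2.14 in CC (1.35 to 3.20), from 26 reads (RR), 54 (Mock) and 23 (CC). For both 5p arms Mock lay above the other libraries, and RR and CC could not be told apart at this depth.

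**Figure D1:**
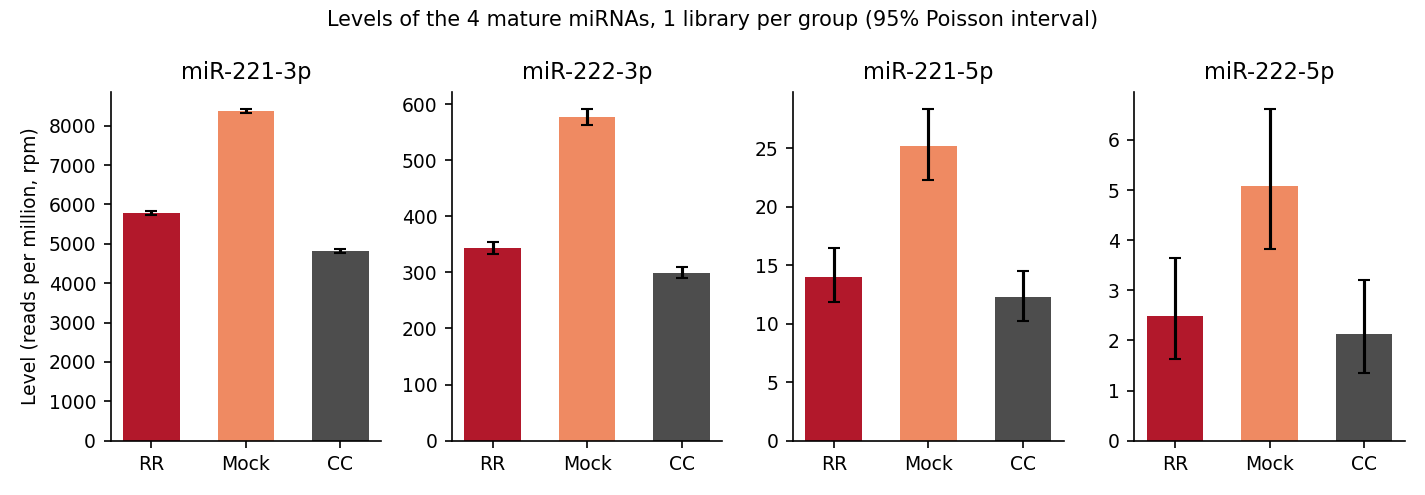
Level of each of the 4 mature miRNAs in RR, Mock and CC, 1 library each, in rpm on axes that start at 0; whiskers are 95% Poisson intervals of the reads. In each panel the bar of Mock is the highest, from 8381 rpm for miR-221-3p to 5.08 rpm for miR-222-5p, and the intervals of RR and CC overlap for the 5p arms.

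Together the 3p arms gave 6130 rpm in RR, 8958 rpm in Mock and 5118 rpm in CC. Of the reads of all listed miRNAs this was 2.99% in RR, 3.87% in Mock and 3.15% in CC, so that on this scale RR lay below CC, unlike in rpm. miR-221-3p held 94.4% of the summed 3p reads in RR, 93.6% in Mock and 94.1% in CC.

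RR over CC sets, by the design text, radioresistant against untreated cells, with the doubt about the tags given above. Between these 2 libraries the members differed little. miR-221-3p was 1.20-fold higher in RR (counting interval 1.19 to 1.22), miR-222-3p 1.15-fold higher (1.09 to 1.20), miR-221-5p had a ratio of 1.15 (0.899 to 1.46) and miR-222-5p one of 1.16 (0.638 to 2.13). None of the 3 members counted differed by 2-fold, beside 1.44% of the 208 miRNAs (0.962% higher and 0.481% lower), and none by 1.5-fold, beside 14.4% (13.5% higher and 0.962% lower). A difference of 2-fold here is 1 on the log2 scale, after adding 1 rpm to each level.

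The log2 ratios of the 3 members, 0.18 to 0.26, lay below the median of all miRNAs, 0.36. For miR-221-3p 131 of the 208 miRNAs had a higher ratio, for miR-222-3p 154 and for miR-221-5p 159. The direction of RR over CC rested on the scale: all 4 members were above 0 as deposited and all 4 were below 0 with median-ratio scaling (-0.12, -0.19, -0.18 and -0.12 for miR-221-3p, miR-222-3p, miR-221-5p and miR-222-5p), in shares of the total of miRNA reads, and when the 10 miRNAs of highest mean were left out of the total. Relative to the median of all miRNAs, which those scalings moved by over 0.1, the 3p arms stood at -0.092 for miR-221-3p and -0.16 for miR-222-3p as deposited.

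By the design text Mock over CC sets a single dose against none, with the doubt about the tags given above, and each member was higher in the library labelled Mock. miR-221-3p was 1.74-fold higher (1.72 to 1.76), miR-222-3p 1.93-fold (1.85 to 2.01), miR-221-5p 2.06-fold (1.66 to 2.55) and miR-222-5p 2.38-fold (1.44 to 4.06). After adding 1 rpm none of the 3 members counted reached 2-fold, beside 15.9% of the 208 miRNAs past it in either direction (12% higher and 3.85% lower). All 3 were higher by 1.5-fold or more, as were 33.7% of the 208, with 12.5% lower and 46.2% in either direction. That count was 2 of 3 with median-ratio scaling, beside 16.3% of all miRNAs, and 0 of 3 in shares of the total of miRNA reads, beside 7.69%. These scalings at 1.5-fold were added after the data were seen.

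On the log2 scale the members stood at 0.80 for miR-221-3p, 0.94 for miR-222-3p, 0.98 for miR-221-5p and 0.96 for miR-222-5p, against the median of 0.28 for all miRNAs. Of the 208 miRNAs 41 had a higher ratio than miR-221-3p, 27 than miR-222-3p and 25 than miR-221-5p. Relative to that median miR-221-3p stood at 0.52, miR-222-3p at 0.66 and miR-221-5p at 0.70. A scaling shifts all miRNAs of a library alike, so by construction it hardly moves these distances.

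GC content moved with the ratio Mock over CC, and its part in the result was not tested beyond the values given here; the members differ in it, with 36.4% for miR-221-5p, 47.8% for miR-221-3p, 50% for miR-222-5p and 52.4% for miR-222-3p. The 76 miRNAs within 5 percentage points of miR-221-3p had a median log2 ratio Mock over CC of 0.37, and the 72 around miR-222-3p one of 0.24, both well under those 3p arms. The 48 around miR-221-5p had a median of 0.73, closer to its 0.98. With the linear GC trend removed the log2 ratios were 0.74 for miR-221-3p, 1.01 for miR-222-3p and 0.59 for miR-221-5p, beside a median of 0.32, so that miR-222-3p passed 2-fold, as did 21 of the 208 miRNAs, 17 of them higher and 4 lower. miR-222-5p, at the 50% on which the trend was centred, could not move.

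**Figure D2:**
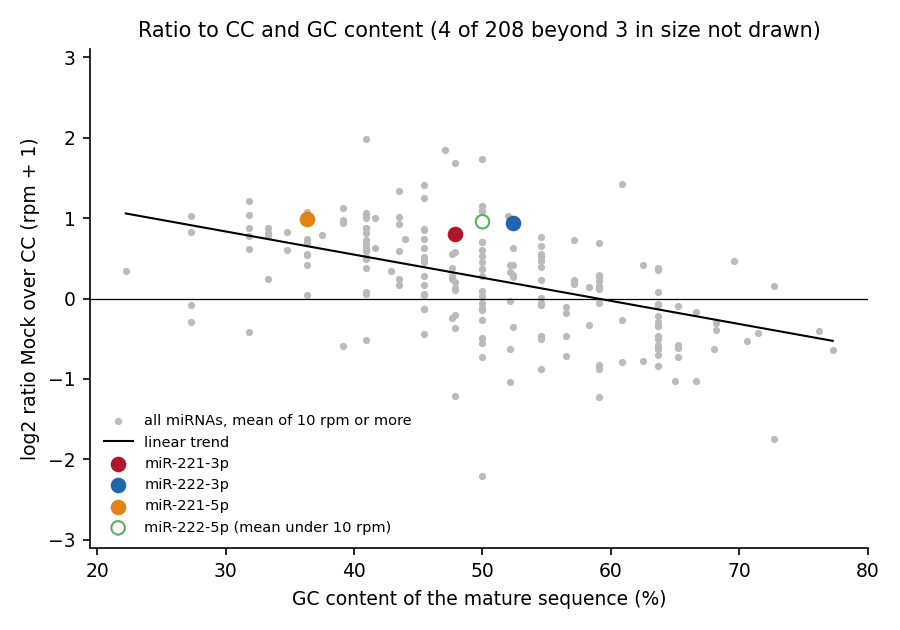
Log2 ratio Mock over CC (after adding 1 rpm) against the GC content of the mature sequence, for the 208 miRNAs counted (grey, 4 of them beyond the axis) and the 4 members (coloured; miR-222-5p, open, is under that mean). The line is the linear trend, and each member lies above it, from 0.80 for miR-221-3p to 0.98 for miR-221-5p.

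The remaining pair, RR over Mock, would by the design text set many doses against 1, with the same doubt. This comparison shares its libraries with the other comparisons, so its values follow from theirs and are no further evidence. miR-221-3p was 1.45-fold lower in RR (1.43 to 1.46), miR-222-3p 1.68-fold lower (1.61 to 1.75), miR-221-5p 1.80-fold lower (1.46 to 2.21) and miR-222-5p 2.05-fold lower (1.26 to 3.40). None of the 3 members counted reached 2-fold after adding 1 rpm, beside 13% of the 208 miRNAs in either direction (8.17% higher and 4.81% lower). By 1.5-fold or more 2 of the 3 were lower in RR, beside 14.4% of the 208, with 22.1% higher and 36.5% in either direction. These were miR-222-3p and miR-221-5p, at log2 ratios of -0.75 and -0.80, where miR-221-3p stood at -0.53 and all miRNAs had a median of 0.065. The count was 3 with median-ratio scaling, beside 18.3% of all miRNAs lower. It was 1, beside 8.17%, in shares of the total of miRNA reads, and 1, beside 7.69%, without the GC trend.

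**Figure D3:**
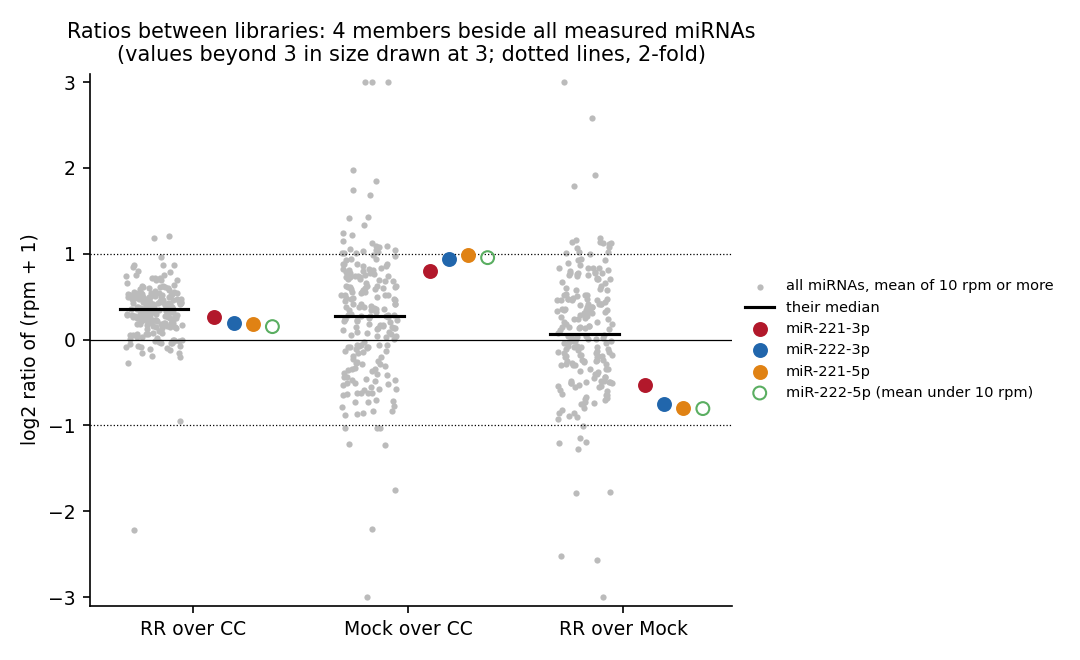
Log2 ratios (after adding 1 rpm) of the 4 members, coloured, beside all 208 miRNAs counted, grey with their median as a bar, for RR over CC, Mock over CC and RR over Mock. The members lie just under the median of 0.36 in RR over CC, near the upper dotted line of 2-fold in Mock over CC and below the median of 0.065 in RR over Mock; values beyond 3 in size are drawn at 3.

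The ratio of the 2 guides differed between libraries by less than either level did. There were 16.8 reads of miR-221-3p per read of miR-222-3p in RR (16.3 to 17.4), 14.5 in Mock (14.1 to 14.9) and 16.1 in CC (15.5 to 16.7). This ratio does not depend on the scale of the libraries. It was 0.903 times that of CC in Mock (0.864 to 0.943), an interval that excludes 1, whereas RR over CC gave 1.05 (0.997 to 1.10). The ratio of miR-221-5p to miR-222-5p was 5.65 for RR, 4.96 for Mock and 5.74 for CC. Its interval for Mock over CC, 0.485 to 1.51, included 1.

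The 3p arm outweighed the 5p arm of each hairpin by over 100 times in every library. For miR-221 there were 412 reads of the 3p arm per read of the 5p arm in RR (351 to 488), 333 in Mock (295 to 376) and 393 in CC (331 to 470). For miR-222 there were 138 in RR (94.3 to 212), 114 in Mock (87.0 to 151) and 140 in CC (93.3 to 222). Among 68 hairpin names with at least 20 reads of each arm in each library, of 297 with both arms listed, the fold between the arms had a median of 9.91 in RR, 8.77 in Mock and 10.5 in CC. miR-221 ranked 5th of the 68 in RR, 5th in Mock and 4th in CC, and miR-222 ranked 10th in RR, 12th in Mock and 10th in CC.

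Against CC, no shift in the balance of the arms could be told from counting error. For miR-221 the ratio of 3p to 5p reads in RR over that in CC was 1.05 (0.822 to 1.34), and in Mock over CC it was 0.846 (0.681 to 1.05). For miR-222 these were 0.986 (0.537 to 1.80) and 0.810 (0.474 to 1.35). All 4 intervals included 1, but those of miR-222, with 23 to 54 reads of its 5p arm, were wide and could miss a shift. Over the other 66 hairpins, the log2 change of the arm ratio for Mock over CC ranged from -2.84 to 1.61, with a median of -0.16, and 42 of them changed more in size than miR-221 (-0.24) and 39 more than miR-222 (-0.30). For RR over Mock, miR-221 had a ratio of arm ratios of 1.24 (1.01 to 1.53), an interval that excludes 1. miR-222 had one of 1.22 (0.748 to 2.03). On the log2 scale these were 0.31 and 0.28, and 40 of the other 66 hairpins changed more in size than miR-221 and 42 more than miR-222. The arms of miR-221 differ in GC content, with 47.8% for the 3p arm and 36.4% for the 5p arm. The part of GC content in this shift was not tested.

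**Figure D4:**
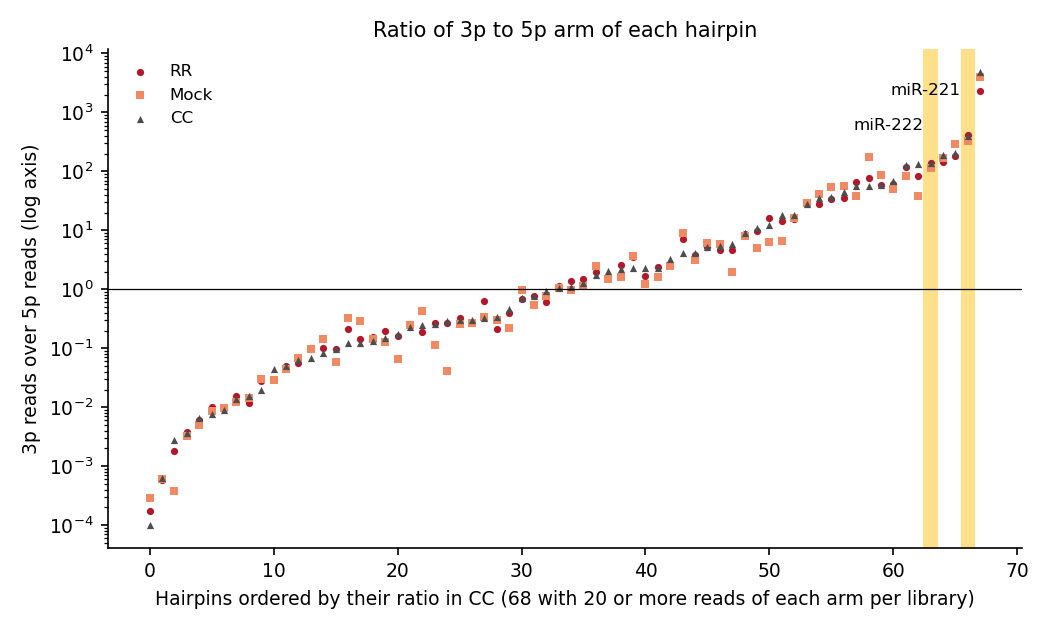
Reads of the 3p arm per read of the 5p arm (log axis) for 68 hairpins with 20 or more reads of each arm in each library, ordered by their ratio in CC; symbols stand for RR, Mock and CC, 1 library each. The shaded hairpins miR-222 (138 for RR, 114 for Mock, 140 for CC) and miR-221 (412 for RR, 333 for Mock, 393 for CC) lie at the 3p end, with the 3 symbols close together.

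Likeness in pattern was measured as the distance between the pairs of log2 ratios RR over CC and Mock over CC, over 3 libraries and the 93 miRNAs averaging 100 rpm and above. Nearest to miR-221-3p were miR-181b-5p (distance 0.044), miR-224-5p (0.067), miR-29a-3p (0.079), miR-30a-5p (0.11), miR-155-5p (0.12) and miR-335-3p (0.13). Its own cluster partner miR-222-3p came 8th, at 0.16. Nearest to miR-222-3p, members left out, were miR-10a-5p (0.12), miR-155-5p (0.16), miR-20a-5p (0.18), miR-30a-5p (0.18), miR-181b-5p (0.19) and miR-335-3p (0.21). Seen from miR-222-3p, the distance to miR-221-3p is the same, 0.160, which lay between those of miR-10a-5p (0.124) and miR-155-5p (0.163). With 3 libraries such a distance is a description, and many miRNAs lie close. miR-181b-5p stood at 176 rpm in RR, 251 rpm in Mock and 148 rpm in CC, and miR-155-5p, an inflammation-induced miRNA, at 537 rpm for RR, 842 rpm for Mock and 487 rpm for CC.

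**Figure D5:**
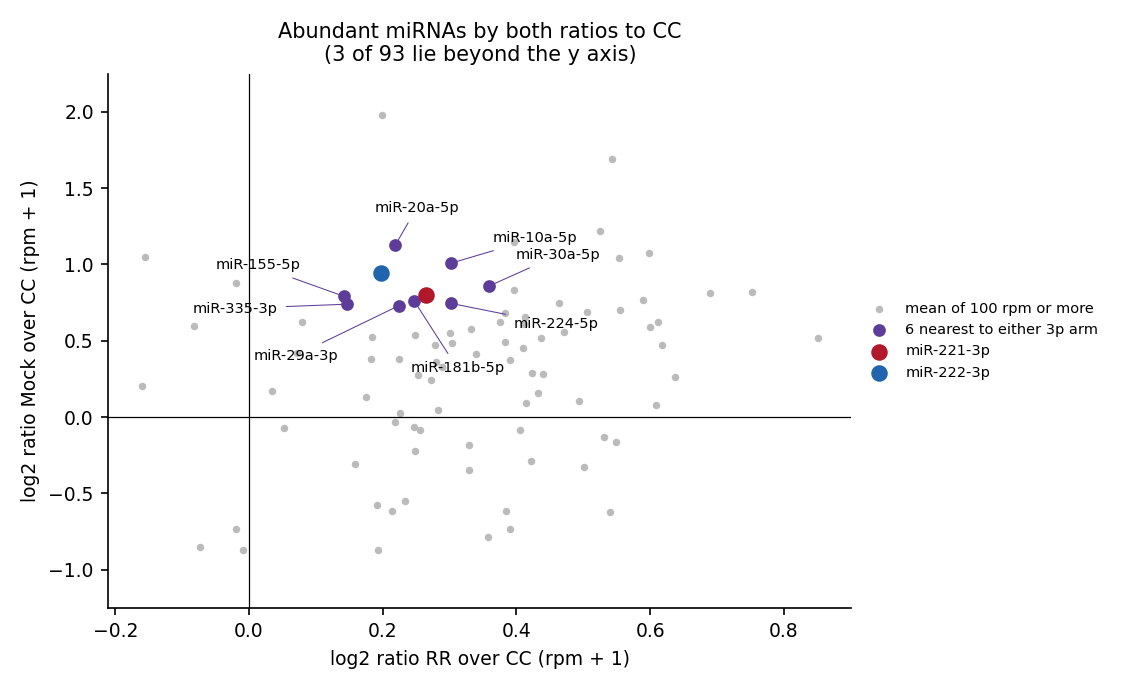
Log2 ratio RR over CC (x axis) and Mock over CC (y axis), both after adding 1 rpm, of miRNAs averaging 100 rpm and above (grey; 3 of 93 lie beyond the y axis), with miR-221-3p (0.26 and 0.80) and miR-222-3p (0.20 and 0.94) in colour. The named points are the 6 nearest to either 3p arm, 8 miRNAs in all, which lie between 0.73 and 1.12 on the y axis.

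Other miRNAs known to repress the same targets were set beside the cluster, with differences of 2-fold counted after adding 1 rpm. Against CDKN1B, the inhibitor with 2 seed sites shown above, all 3 other miRNAs were measured. miR-24-3p stood at 1364 rpm in RR, 1541 rpm in Mock and 906 rpm in CC, and miR-196a-5p at 88.5 rpm for RR, 124 rpm for Mock and 59.1 rpm for CC. Of the 3, miR-196a-5p alone was past 2-fold, in Mock over CC (2.11-fold, 1.91 to 2.32), beside 12% of the 208 miRNAs higher. The median log2 ratio of the list was 0.58 for RR over CC and 0.77 for Mock over CC, beside 0.36 and 0.28 for all miRNAs, with -0.36 in RR over Mock, beside 0.065. miR-181a-5p stood at 358 rpm in RR, 460 rpm in Mock and 400 rpm in CC. The summed 3p arms, at 5118 rpm or more in each library, had more reads than these 3 together, which came to 1811 rpm in RR, 2126 rpm in Mock and 1366 rpm in CC.

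Against BBC3, 2 of 3 were measured and neither was higher in Mock by 2-fold: miR-125b-5p stood at 1198 rpm in RR, 958 rpm in Mock and 898 rpm in CC, and miR-149-5p at 379 rpm for RR, 171 rpm for Mock and 296 rpm for CC. The median log2 ratio was 0.39 for RR over CC, -0.35 for Mock over CC, with 0.73 in RR over Mock. All miRNAs had medians of 0.36, 0.28 and 0.065 in that order. For miR-149-5p, RR over Mock was 2.22-fold (2.10 to 2.34), in the opposite direction to the members, and 8.17% of the 208 miRNAs were higher by 2-fold. Its GC content, 60.9%, is above that of each member. Across the 208 miRNAs RR over Mock rose with GC content (Spearman correlation 0.60), and the part of this in the contrast was not tested. Against TIMP3, an inhibitor of matrix metalloproteinases, 4 of 4 were measured. Of these, miR-21-5p and miR-206 were higher by 2-fold in Mock over CC, beside 12% of the 208 miRNAs. The same miRNAs were lower by 2-fold in RR over Mock, beside 4.81%. The median log2 ratio was 0.40 for RR over CC, 1.90 for Mock over CC, with -1.51 in RR over Mock, beside the same medians of all miRNAs. miR-21-5p stood at 6209 rpm in RR, 36929 rpm in Mock and 4475 rpm in CC. miR-206 stood at 3.63 rpm in RR, 25.5 rpm in Mock and 1.76 rpm in CC, miR-17-5p at 433 rpm for RR, 513 rpm for Mock and 344 rpm for CC, and miR-181b-5p was as given above. None of the measured miRNAs of these 3 lists was past 2-fold in RR over CC after adding 1 rpm, beside 1.44% of the 208. Before adding it, miR-206 had a ratio of 2.06 (1.16 to 3.78).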

How the data were processed

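Per the labels' protocols, total RNA was ligated to adapters, amplified and size-selected, and sequenced on an Illumina NovaSeq instrument. Bowtie and GRCh38 are named, without role or version, in the submitters' processing notes; trimming, the miRNA reference and the handling of reads matching several miRNAs are not stated in the sources at hand. The authors deposited 1 table of values named TPM, which behave as rpm: within a library all miRNAs shared 1 step, and dividing by it gave whole reads (tolerance 0.01 read) for 100% of the values. A count test needs replicates, and there was 1 library per group, so none was run. No molecular identifiers are mentioned, so PCR copies count as reads. Whether ligation and amplification captured different sequences equally was not tested, so levels of different miRNAs compare reads, not molecules. The limit for a miRNA with no read, 3 reads, is 0.286 rpm for RR, 0.282 rpm for Mock and 0.279 rpm for CC.

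Columns were tied to libraries through the treatment tag, and groups follow the titles. Levels have exact Poisson intervals, ratios exact intervals by Clopper-Pearson, and ratios of ratios conditional exact intervals, all at 95%. Log2 ratios add 1 rpm, which understates differences of low miRNAs. Named miRNAs are the members, the 6 nearest in pattern, rank neighbours, miRNAs sharing a seed and those on 3 target lists, and, chosen after their values were seen, some of 6 marker lists; a further list is not reported here. Members, lists and rules were chosen with earlier results of these data known. Of the target lists, 3 of 3 miRNAs against CDKN1B, 2 of 3 against BBC3 and 4 of 4 against TIMP3 were in the table. Alternatives were pseudocounts of 0.1 and 10 rpm, other filters and folds, 3 other scalings and removal of a linear GC trend. For seed matches, the transcript with the best APPRIS label and then the longest 3′ UTR was used. The computation was tested on simulated data. Intervals came from scipy 1.17.1, tables from pandas 2.3.3 with numpy 2.4.6, under Python 3.11.15, and plots from matplotlib 3.10.9.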

Additional observations from a re-analysis of the deposited data

How the results depend on the processing

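Mock over CC stayed above 0 and RR over Mock below 0 for every member and for the summed 3p arms in all 30 recomputed log2 ratios of each, whereas RR over CC changed sign in 15 of 30, all of them under another scaling. For the summed 3p arms, RR over CC was 0.26 as deposited, -0.12 with median-ratio scaling, -0.075 in shares of the total of miRNA reads and -0.058 without the 10 most abundant miRNAs. Mock over CC was 0.81, and 0.50, 0.30 and 0.46 under these scalings and 0.75 without the GC trend; RR over Mock was -0.55, and -0.63, -0.37, -0.52 and -0.49. Members past 2-fold numbered 0 in each comparison, and 1 in Mock over CC with a pseudocount of 0.1 rpm (miR-221-5p, beside 35 of the 208 miRNAs) or without the GC trend (miR-222-3p, beside 21 of 208). At 1.5-fold they numbered 3 in Mock over CC, with 0 in shares of the total of miRNA reads, and 2 in RR over Mock, with 1 in shares of the total of miRNA reads or without the GC trend. Scalings at 1.5-fold were added after the data were seen.

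Counts of all miRNAs past the threshold moved by over 1.5 times as follows. The filters also changed how many miRNAs were counted. There were 390 with a mean of 1 rpm or more, 93 with a mean of 100 or more and 1149 with no filter, in place of 208. A count under those filters is thus not a change in share: Mock over CC had 33 of 208, 57 of 390, 12 of 93 and 60 of 1149. RR over CC had 3, with 30 at 1.5-fold, 1 at 4-fold, 7 with a mean of 1 rpm or more, 0 with a mean of 100 or more, 8 with no filter and 1 with a pseudocount of 10; its 30 at 1.5-fold became 5, 6 and 5 under the scalings. Mock over CC had 33, with 96, 5, 57, 12, 60 and 16 under the same settings and 21 without the GC trend. RR over Mock had 27, with 76, 5, 50, 11, 57 and 16, and 14 without the GC trend, where its 76 at 1.5-fold became 47. The split of 25 higher and 8 lower in Mock over CC was 10 and 18 with median-ratio scaling, 7 and 31 in shares of the total of miRNA reads and 10 and 19 without the 10 most abundant miRNAs. For RR over CC the split of 2 and 1 was 0 and 2 under each scaling, and for RR over Mock 17 and 10 was 25 and 8 in shares of the total of miRNA reads. Depth limits the 5p arms, with 23 to 268 reads. No paired analysis was possible because each group has 1 library.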
